A study of Mus musculus with 6 samples.

Results

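The miRNAs described here come from 6 hairpins on the minus strand of mouse chromosome X (mm10), Mir322, Mir503, Mir351, Mir450-2, Mir450-1 and Mir450b. They were chosen as the loci of 5 mature identifiers (miR-322-5p, miR-503-5p, miR-351-5p, miR-450a-5p and miR-450b-5p) together with the opposite arm of each hairpin, at most 80 bases away on the same strand. This gave 12 of the 2110 loci in the table, 6 on the 5p side and 6 opposite arms, which stand for 11 distinct mature miRNAs because miR-450a-5p lies in 2 hairpins. The arms of a hairpin were 13 to 18 bases apart, and the nearest locus left out by the distance, miR-542, was 1054 bases from a member. The cluster was selected on the old against young log2 fold changes of an earlier analysis of these libraries, in which miR-351-5p was lower in old, so that its age values are given below as a description.

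Small RNA was sequenced from extracellular vesicles, which the labels call exosomes, collected from the muscle of young mice (3 libraries) and of old mice (3 libraries). Strain, genotype, exact age, sex and the muscles taken are not stated in the labels, which also do not say whether replicates came from separate animals, so that tests over libraries measure only the spread between these samples, which may be technical. Vesicles hold miRNAs released by every cell type of a muscle, and fewer vesicles from one cell type cannot be told apart from less miRNA per vesicle.

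miRNAs are cut from hairpin precursors, and either arm can be loaded into an Argonaute protein, where the bases 2 to 8 (the seed) select target mRNAs. In mouse myoblasts, miR-322 (the counterpart of human miR-424) and miR-503 are known to accumulate as the cells stop dividing and differentiate, and to lower the cell-cycle phosphatase Cdc25a. miR-351 lies in the same cluster and shares its seed with miR-125a and miR-125b, while miR-322 shares its seed with miR-15 and miR-16, a family known for acting on cell-cycle genes.

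The mature sequences (RefSeq, GRCm38.p6, the assembly also called mm10) are shown because members are compared by their seeds below, with the seed in capitals. All 11 matched the table exactly by position. The first set holds the 5p arms.
miR-322-5p: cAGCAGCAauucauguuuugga
miR-503-5p: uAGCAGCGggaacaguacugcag
miR-351-5p: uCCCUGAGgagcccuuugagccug
miR-450a-5p: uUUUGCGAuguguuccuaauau
miR-450b-5p: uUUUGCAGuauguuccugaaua

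The seeds of miR-322-5p and miR-503-5p differ at 1 position (A8G, counted from 1 at the 5′ end of miR-322-5p). miR-450a-5p and miR-450b-5p share their first 6 bases and differ at 2 seed positions (G7A and A8G) and at 7 of 22 positions in all. The 3p arms of the miR-450 hairpins are more alike. miR-450b-3p and miR-450a-1-3p carry the same seed and differ at 2 of 22 positions (G19A and C20A), both near the 3′ end, and miR-450a-2-3p differs from miR-450b-3p at 5 positions, 1 of them in the seed (A7G).
miR-450b-3p: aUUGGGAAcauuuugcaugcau
miR-450a-1-3p: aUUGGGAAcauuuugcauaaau
miR-450a-2-3p: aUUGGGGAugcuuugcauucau
miR-322-3p: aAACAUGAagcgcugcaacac
miR-503-3p: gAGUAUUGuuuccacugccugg
miR-351-3p: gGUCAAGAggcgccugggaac

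Along the direction of transcription the hairpins follow each other as Mir322 (chrX:53054255-53054349), Mir503 (chrX:53053984-53054054), Mir351 (chrX:53053255-53053353), Mir542, Mir450-2 (chrX:53048299-53048367), Mir450-1 (chrX:53048154-53048244) and Mir450b (chrX:53047997-53048078). From the first to the last mature base the members span 6320 bases. None lies inside an annotated exon or intron of a non-miRNA gene in GENCODE release M21. The nearest upstream gene on the strand, the processed transcript C430049B03Rik (chrX:53055046-53057190), ends 696 bases before the Mir322 hairpin, and the lincRNA Gm28730 (chrX:53051194-53053159) lies between Mir351 and Mir542.

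The libraries held 904892 to 1706396 counts. Old replicate 1 was the shallowest and stood apart from the others: miR-21a-5p, the most abundant miRNA, took 35.4% of its counts and 49.0% to 52.9% of those of the other 5 libraries. The vesicles carried striated muscle miRNAs, with 7 of the 9 loci on that marker list above 0 and a summed share of 4.95% to 6.26% in young and 4.61% to 9.91% in old libraries, the highest in old replicate 1. Red blood cell miRNAs (2 of 2 loci above 0) took 4.03% to 4.36% and 4.12% to 4.52%. The smooth muscle and fibroblast list (5 of 5 loci above 0) took 2.81% to 3.11% in young and 3.59% to 4.36% in old. The leukocyte list (3 of 4) took 0.110% to 0.135% and 0.0827% to 0.105%. Both sums separated the groups, but the miRNAs within each list did not move together. By log2 fold change (old minus young), miR-143-3p was at 0.70, miR-145a-5p at 0.42, miR-199a-3p at 0.22 and 0.20, and miR-214-3p at -0.40. In the leukocyte list miR-155-5p was at -0.81, while miR-223-3p (0.11) and miR-150-5p (0.09) had overlapping groups. The striated muscle sum overlapped between groups, and its most abundant tested miRNA, miR-206-3p, was at 0.17 with overlapping groups. In that list miR-133a-3p (1.1 at both loci), miR-499-5p (0.998), miR-1a-3p (0.71) and miR-133b-3p (0.39) were higher in old without overlap. By edgeR's quasi-likelihood test all of these but miR-133b-3p were called higher (adjusted p under 0.05). The endothelial marker miR-126a-3p was listed at 0 in every library, and its locus overlaps another on the opposite strand, where reads were left uncounted. The 2 striated muscle loci and the 1 leukocyte locus at 0 also overlap another locus, so that those sums can be incomplete. No cluster locus overlaps another in this way. The part of these cell type markers in the cluster's values was not tested.

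The cluster was a small part of the counted miRNA pool. Its 12 loci held 0.547%, 0.564% and 0.470% of all counts in young replicates 1, 2 and 3, and 0.348%, 0.382% and 0.370% in old replicates 1, 2 and 3. The lowest young library lay above the highest old one, and the 95% exact binomial intervals of those 2 libraries, 0.459% to 0.481% and 0.372% to 0.393%, did not overlap. These intervals cover counting error only, and libraries of the same group differed by more than that. Since the cluster was chosen with this contrast known, the separation is a description. The means (SD, n = 3 per group) were 0.527% ± 0.0501 for young and 0.367% ± 0.0174 for old libraries. Without miR-21a-5p in the total they were 1.08% ± 0.129 and 0.691% ± 0.133.

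miR-322-5p dominated the cluster and ranked 39 among all 2110 loci by mean level. It made up 67.8% to 71.5% of the cluster's counts in young and 61.8% to 74.2% in old libraries. Levels are given as CPM, counts scaled to a library of 1000000 counts, with library sizes adjusted by TMM, edgeR's trimmed mean method. Levels were not divided by length, since a read spans a whole miRNA of 21 to 24 bases, and they count reads, not molecules. The levels rank the miRNAs within the sequenced libraries, and how well each sequence was captured during library construction was not tested.

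In order of mean level over the 6 libraries, miR-322-5p (3135 CPM) stood above miR-351-5p (765 CPM), miR-450a-5p with both copies summed (268 CPM) and miR-450b-3p (169 CPM). Below them came miR-322-3p (54.2 CPM), miR-503-5p (47.5 CPM), miR-503-3p (22.7 CPM) and miR-450b-5p (16.1 CPM). At the bottom, miR-351-3p, miR-450a-1-3p and miR-450a-2-3p had 3.88, 2.17 and 1.38 CPM, from 32, 17 and 10 counts over all libraries. Each of the 10 neighbouring pairs in this order was compared within libraries by an exact two-sided sign-flip permutation test, with p adjusted over the 10 pairs. The order itself was read from the same libraries. In 7 pairs the higher member led in 6 of 6 libraries (exact p = 0.03125, the smallest possible, adjusted p = 0.0446), with mean differences from 0.48 (miR-503-3p over miR-450b-5p) to 2.07 (miR-322-5p over miR-351-5p) on the log2 scale. The other 3 pairs did not pass. miR-322-3p over miR-503-5p differed by 0.19 ± 0.21 (SD, n = 6; exact p = 0.09375, adjusted p = 0.117), and the 3 rarest arms could not be ordered (adjusted exact p = 0.243 and 0.313).

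**Figure D1:**
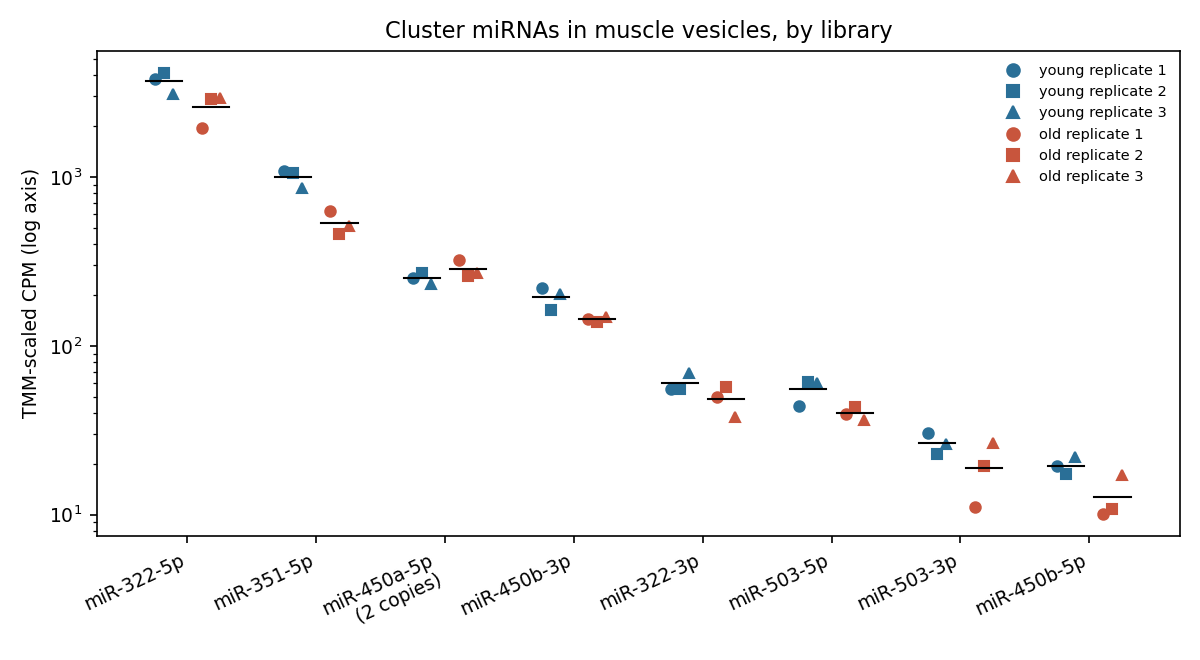
Level of each tested cluster miRNA in each library, as TMM-scaled CPM on a log axis, with blue for young, red for old, 1 symbol per replicate number and a black line at each group mean. miR-322-5p has a mean of 3135 CPM and miR-450b-5p one of 16.1 CPM, and the red points of miR-351-5p all lie under its blue points while those of miR-450a-5p do not.

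Old and young libraries were set side by side to ask how the level of each cluster miRNA, relative to the other counted miRNAs, stood at each age. CPM is relative to the other counts of a library and gives no amount per vesicle. Most tested cluster loci had a lower mean level in vesicles from old muscle. miR-351-5p and the myoblast differentiation miRNA miR-322-5p had 0.533 and 0.702 times the young mean. miR-450a-5p, from the other end of the cluster, had 1.13 times the young mean, with overlapping groups. Of the 12 loci, 9 passed edgeR's filter on low counts, and the 3 that did not were miR-351-3p, miR-450a-1-3p and miR-450a-2-3p. Among the 9 tested loci, 7 had a log2 fold change (old minus young) below 0, and their median was -0.46, beside a median of 0.04 and 47.6% below 0 over all 347 tested loci.

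In the fit over all 347 loci by edgeR's quasi-likelihood test (adjusted p under 0.05), 1 member, miR-351-5p, was called lower and none higher, where 0.865% of all tested loci were called lower, 3.46% higher and 4.32% in either direction. The number of loci called lower depended on the libraries and the tool. It was 3 of 347 here, 20 of 359 (5.57%) without old replicate 1, 12 of 360 (3.33%) without old replicate 3, 0 of 356 without old replicate 2, 1 without young replicate 1 or 3, and 9 of 347 with DESeq2. By the unadjusted p under 0.05, 78 of the 347 loci passed. The old libraries lay below all young libraries, with no overlap, at 5 of the 9 members (miR-322-5p, miR-503-5p, miR-351-5p, miR-450b-5p and miR-450b-3p), where this held for 13% of all tested loci. Since the cluster was chosen with this contrast known, these counts describe it and support nothing.

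miR-351-5p (MIMAT0000609) had 1083, 1052 and 860.2 CPM in young replicates 1, 2 and 3 and 626, 460.4 and 510.0 CPM in old replicates 1, 2 and 3. Every old library lay below every young one, and old replicate 1, which differed from the rest in miR-21a-5p, was the closest of the old libraries to the young range. The means were 998 ± 121 and 532 ± 85.1 CPM (SD, n = 3 each), a log2 fold change of -0.91 ± 0.18 (SE). Leaving out 1 library at a time gave values between -1.02 and -0.81. The call was lost without old replicate 2 (-0.81) and without young replicate 1 (-0.88), and it was kept in the other 4 cases.

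miR-322-5p (MIMAT0000548) had 3799, 4139.6 and 3113 CPM in young and 1961, 2881 and 2919 CPM in old. The groups did not overlap, but old replicates 2 and 3 lay just under the lowest young library, and old replicate 1 was far below both. The means were 3684 ± 523 and 2587 ± 542 CPM, and the log2 fold change was -0.51 ± 0.19 (SE), which was not called. It was -0.33 without old replicate 1. Its opposite arm, miR-322-3p, had 55.3 to 69.3 CPM in young and 38.0 to 57.3 CPM in old, with overlapping groups (log2 fold change -0.32 ± 0.26). With 1 library left out at a time, that value ran from -0.47, without old replicate 2, to -0.17, without old replicate 3.

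miR-503-5p (MIMAT0003188), the partner of miR-322 in myoblast cell-cycle exit, had 44.1, 61.4 and 60.3 CPM in young and 39.3, 43.7 and 36.5 CPM in old. All old libraries were lower, the highest of them by a narrow margin to young replicate 1. The log2 fold change was -0.47 ± 0.26, from 407 counts over all libraries. Its 3p arm had 22.9 to 30.3 CPM and 11.1 to 26.4 CPM, and the value of -0.46 ± 0.35 became -0.20 without old replicate 1, its lowest library, and -0.76 without old replicate 3.

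The miR-450 hairpins gave values on both sides of 0. miR-450a-5p (MIMAT0001546), with both copies summed, had 252, 271 and 232 CPM in young and 322, 261 and 270.1 CPM in old, so that the groups overlapped and the highest value was old replicate 1. Its log2 fold change was 0.16 ± 0.19 when fitted on summed copies, and 0.28 ± 0.21 and 0.07 ± 0.20 for the separate loci in Mir450-2 and Mir450-1. With 1 library left out at a time, the Mir450-2 value ran from 0.16, without old replicate 1, to 0.40, without old replicate 2. The Mir450-1 value ran from -0.015, without young replicate 3, to 0.16, without young replicate 2. The copies encode the same 22 bases and their counts stood at a ratio of 0.945 to 1.29 in the 6 libraries, so that they are 1 measurement.

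miR-450b-3p, from the hairpin next to them, had 221, 164 and 202 CPM in young and 143.2, 139 and 148 CPM in old. The old libraries were tightly grouped and all below the young ones. The means were 195 ± 29.1 and 143.5 ± 4.68 CPM and the log2 fold change was -0.45 ± 0.20, not called. Its rarer partner miR-450b-5p (MIMAT0003511) had 19.3, 17.4 and 21.8 CPM in young and 10.1, 10.7 and 17.1 CPM in old, and its log2 fold change of -0.61 ± 0.38 rested on 138 counts. Without old replicate 3, the old library nearest to the young ones, it was -0.90.

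miR-542, whose hairpin lies between Mir351 and the miR-450 hairpins, was not among the chosen miRNAs but belongs to the same stretch. miR-542-5p had 251 to 325 CPM in young and 296 to 331 CPM in old, and the groups overlapped (log2 fold change 0.11 ± 0.18). miR-542-3p had 13.2 to 20.0 CPM and 10.1 to 18.1 CPM (-0.27 ± 0.40). By edgeR's test over all loci neither was called, with adjusted p-values of 0.801 and 0.789.

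**Figure D2:**
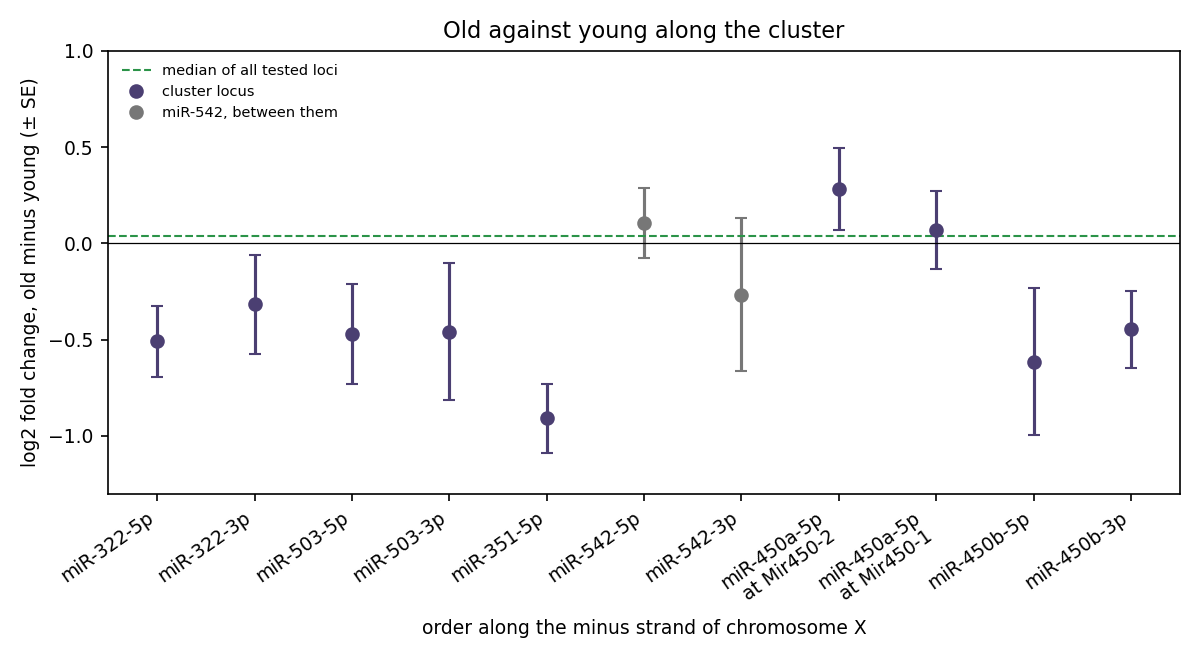
Log2 fold change (old minus young, with its SE) of the 9 tested cluster loci in purple and of both miR-542 arms in grey, in their order along the minus strand, with the median of all tested loci (0.04) as a dashed green line. miR-351-5p is lowest at -0.91, miR-542-5p and both copies of miR-450a-5p lie above 0, and both arms of Mir450b lie below 0 again.

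Ratios between cluster members in 1 library do not depend on how libraries are scaled. Per count of miR-450a-5p there were 4.29, 3.88 and 3.70 counts of miR-351-5p in young and 1.95, 1.77 and 1.89 in old, a tight grouping on both sides with no overlap (means 3.96 ± 0.302 and 1.87 ± 0.0919, SD, n = 3 each). Here old replicate 1 lay with the other old libraries. The ratio of miR-322-5p to miR-450a-5p was 15.1, 15.3 and 13.4 in young and 6.10, 11.1 and 10.8 in old, with old replicate 1 well below the others. miR-450b-3p stood at 0.603 to 0.874 and 0.445 to 0.549, and miR-503-5p at 0.175 to 0.260 and 0.122 to 0.168. All these groups were apart, the last by a narrow margin. miR-450a-5p was the tested member with log2 fold changes above 0, and the cluster was chosen with this contrast known. The ratios therefore restate the levels and support nothing, and how often other pairs of loci lie apart was not tested.

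Between the 2 leading members the picture was different. There were 3.51, 3.94 and 3.62 counts of miR-322-5p per count of miR-351-5p in young and 3.13, 6.26 and 5.72 in old. Old replicates 2 and 3 were above the young range and old replicate 1 was below it, so that the groups overlapped. In old replicate 1 miR-351-5p made up 19.7% of the cluster's counts, against 18.2% to 19.7% in young and 11.9% and 12.8% in old replicates 2 and 3. The share of miR-450a-5p was 4.58% to 5.06% in young and 6.72% to 10.1% in old libraries.

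**Figure D3:**
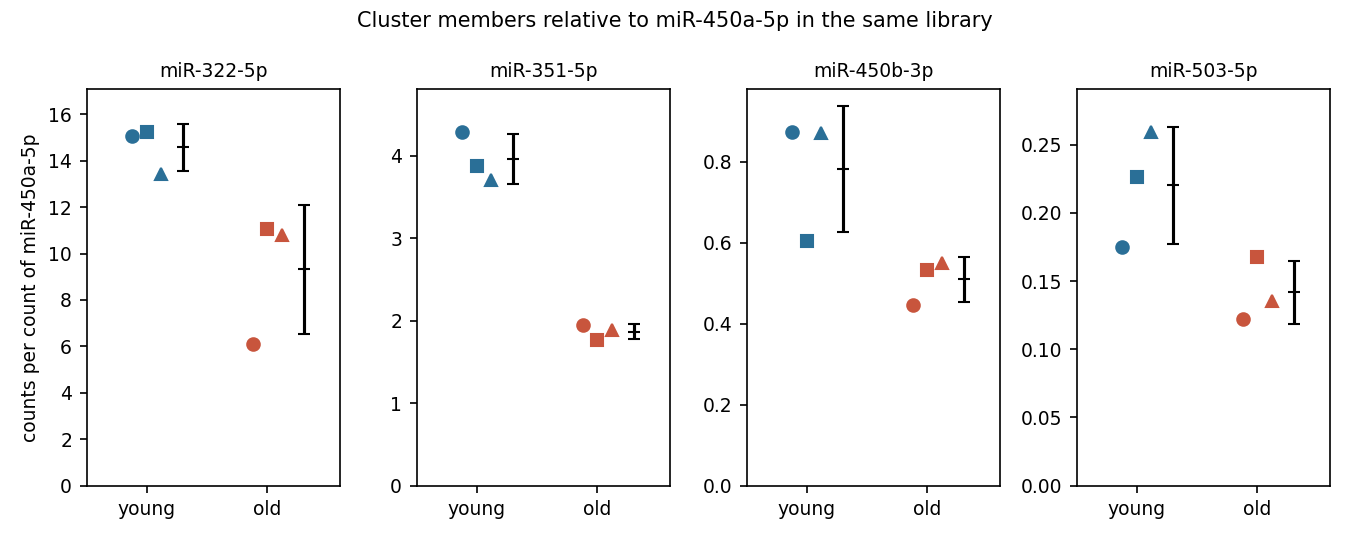
Counts of miR-322-5p, miR-351-5p, miR-450b-3p and miR-503-5p per count of miR-450a-5p (both copies summed) in the same library, on linear axes from 0, with 1 symbol per replicate (circle 1, square 2, triangle 3) and the mean ± SD (n = 3) beside each group. The miR-351-5p panel shows 3.70 to 4.29 in young against 1.77 to 1.95 in old.

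Arm use was compared over all 6 libraries together, without splitting them by age. In 4 of 5 hairpin groups the 5p arm was the more abundant, and in Mir450b it was the 3p arm. The mean log2 ratio of 5p to 3p counts (with 0.5 added to each) was 5.83 ± 0.41 for Mir322, 7.56 ± 1.23 for Mir351, 6.46 ± 1.14 for Mir450-1 and Mir450-2 together, 1.09 ± 0.51 for Mir503 and -3.40 ± 0.28 for Mir450b (SD, n = 6 each). Each ratio kept its sign in 6 of 6 libraries, and each differed from 0 by an exact two-sided sign-flip permutation test (p = 0.03125, the smallest that 6 libraries allow, and 0.03125 adjusted over the 5 tests). miR-450a-5p is identical in both of its hairpins, so that these were taken as 1 group with both 3p arms summed. The neighbour Mir542 also had more 5p than 3p counts, with a mean log2 ratio of 4.28 ± 0.41.

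The hairpins Mir450-1 and Mir450b are shown because their arms are alike in sequence and opposite in use, with both mature arms in capitals, 5p first.
Mir450-1: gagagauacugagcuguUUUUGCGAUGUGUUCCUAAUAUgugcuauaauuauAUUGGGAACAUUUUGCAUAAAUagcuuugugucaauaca
Mir450b: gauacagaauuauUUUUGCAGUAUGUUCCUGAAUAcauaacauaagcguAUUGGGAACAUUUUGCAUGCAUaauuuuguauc

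From Mir450b, the 3p arm made up 89.7% to 93.4% of the counts in every library. From Mir450-1 and Mir450-2, the 3p arms made up 0.221% to 2.74%. The 3p arms miR-450b-3p and miR-450a-1-3p, which differ at 2 positions, had 1434 and 17 counts in all. miR-450a-1-3p was at 0 in young replicate 2, which allows up to 1.80 CPM (3 counts on the TMM-scaled library size), and miR-450a-2-3p was at 0 in young replicate 1 and old replicate 3, which allows up to 2.07 and 2.33 CPM.

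Mir503 was the most balanced hairpin, shown with both arms in capitals.
Mir503: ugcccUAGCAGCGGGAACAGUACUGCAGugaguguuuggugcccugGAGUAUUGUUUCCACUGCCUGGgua
Its 3p arm made up 40.7%, 27.1% and 30.4% of its counts in young and 22.0%, 30.7% and 42.0% in old, on 50 to 140 counts per library, and the groups overlapped. For Mir351 the 3p share was 0.127%, 0.285% and 0.371% in young and 0.481%, 1.38% and 1.20% in old. The old libraries were all higher, but the 3p arm had only 2 to 9 counts in a library, and the 95% exact binomial interval of old replicate 1 (0.0993% to 1.40%) held all 3 young values. The intervals of old replicate 2 (0.633% to 2.60%) and old replicate 3 (0.521% to 2.36%) held none of them. Both overlapped the intervals of young replicate 2 (0.0927% to 0.664%) and young replicate 3 (0.121% to 0.865%), but not that of young replicate 1 (0.0154% to 0.459%). The mean log2 ratio of 5p to 3p counts of Mir351 was 8.51 ± 0.70 in young and 6.61 ± 0.75 in old (SD). Its SD over all libraries therefore includes this difference. The larger part of this hairpin, miR-351-5p, was itself lower in old, and a change of arm use with age was not tested. miR-351-3p itself had 1.38 to 3.21 CPM in young and 3.02 to 6.44 CPM in old, with overlapping groups.

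**Figure D4:**
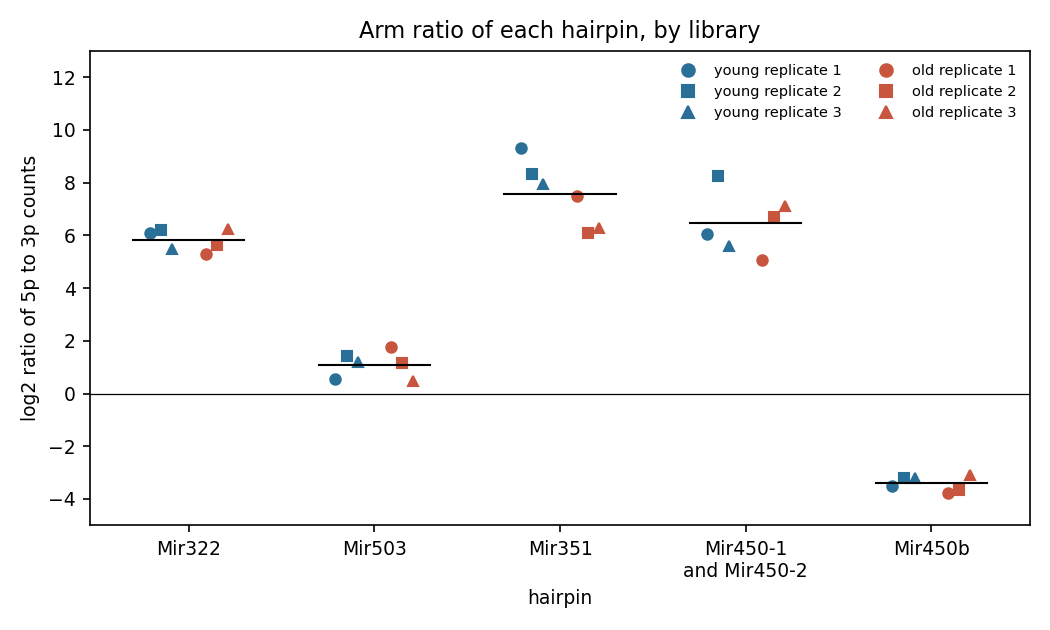
Log2 ratio of 5p to 3p counts for each hairpin group in each library, with blue for young, red for old, 1 symbol per replicate number and a black line at the mean of 6 libraries. Values above 0 mean more 5p, and only Mir450b among these 5 groups lies below 0, at a mean of -3.40.

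Other miRNAs with the same seed as a member were read from the same fit. Seeds were read only for the 1734 of 2110 loci named from RefSeq, and the other loci were not checked. Among those read there were 14 such mature miRNAs at 16 loci, of which 9 loci (7 mature miRNAs) were tested. By edgeR's quasi-likelihood test none of these 9 was called in either direction, where 4.32% of all tested loci were called. None had an unadjusted p under 0.05, which 78 of all 347 tested loci had. Of the 9 loci, 6 had a log2 fold change below 0, beside 47.6% of all tested loci. The median of the 9 was -0.13, beside 0.04 over all tested loci. miR-16-5p and miR-15b-5p (the most abundant relatives of miR-322-5p) and miR-125a-5p and miR-125b-5p (those of miR-351-5p) are printed to show how far the likeness to the member goes beyond the seed.
miR-16-5p: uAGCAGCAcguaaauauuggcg
miR-15b-5p: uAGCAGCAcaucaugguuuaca
miR-125a-5p: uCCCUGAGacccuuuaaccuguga
miR-125b-5p: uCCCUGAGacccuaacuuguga

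miR-322-5p and miR-16-5p were equal at 12 of 22 positions, and miR-351-5p and miR-125b-5p at 10 of 22, of which the first 8 were consecutive. miR-16-5p had log2 fold changes of -0.13 ± 0.16 and -0.17 ± 0.17 at its 2 loci, and miR-15b-5p one of -0.30 ± 0.16 (adjusted p = 0.731, 0.637 and 0.293 by edgeR). miR-125a-5p had -0.25 ± 0.19 and miR-125b-5p -0.18 ± 0.20 and -0.12 ± 0.21 at its 2 loci (adjusted p = 0.504, 0.706 and 0.800 by edgeR). miR-125a-5p was more abundant than miR-351-5p, at 1434 ± 209.7 CPM for young and 1204 ± 295 CPM for old libraries. miR-503-5p, both miR-450 5p arms and the 3p arms of Mir322, Mir503 and Mir351 had no other miRNA with their seed among the loci whose seed was read.

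The profile of each tested 5p arm over the 6 libraries was compared with those of all 310 tested mature miRNAs. The measure was the root-mean-square difference of log2(CPM + 1) after each profile was centred on its own mean. For miR-450a-5p, the closest outside miRNAs were miR-196b-5p (0.061), its chromosomal neighbour miR-542-5p (0.067) and miR-93-5p (0.096), where the median over outside miRNAs was 0.36. The closest cluster member was miR-322-3p at 0.35, and miR-351-5p was at 0.55. For miR-322-5p the closest were miR-199a-5p (0.062), miR-872-3p (0.096) and miR-149-5p (0.12), while the nearest cluster member, miR-503-3p, came 30th at 0.26. For miR-351-5p they were miR-10a-5p (0.20), miR-6944-3p (0.21) and miR-15b-3p (0.24), with miR-450b-3p as the nearest member at 0.32. miR-503-5p was closest to miR-103-3p (0.14), miR-19b-3p (0.15) and miR-500-3p (0.15), with miR-322-3p as the nearest member at 0.19. miR-450b-5p was closest to miR-501-5p (0.18), let-7e-3p (0.19) and miR-130b-5p (0.20), and its nearest members were miR-503-3p (0.23) and its own partner arm miR-450b-3p (0.24). The median over outside miRNAs was 0.48 for miR-322-5p, 0.58 for miR-351-5p, 0.43 for miR-503-5p and 0.51 for miR-450b-5p. The nearest members of these 4 arms all lay closer than that. Among all compared miRNAs the nearest member came 18th for miR-351-5p, 9th for miR-503-5p, 10th for miR-450b-5p and 150th for miR-450a-5p. With 6 libraries, of which 1 stood apart, many profiles lie close by, and the distances are a description.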

How the data were processed

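Small RNA libraries of vesicles from young and old mouse muscle (3 each) were analysed from 1 deposited table of raw counts per mature miRNA locus. The authors counted reads with featureCounts version 2.0.6, with no option for strand, multi-mapping reads or reads over overlapping features, per the file headers, after alignment with BWA to mm10, per the submitters' processing notes. Neither the BWA version nor any trimming step is stated in the labels or headers. The alignment can place a read of miR-450a-5p at either copy.

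The table holds identifiers without names. Of 2110 loci, 1734 were named from RefSeq mature miRNAs and 362 from GENCODE M21 miRNA genes, within 3 bases, and 14 stayed unnamed. Old and young were compared with edgeR 4.0.16 (R 4.3.3; filterByExpr with a minimum count of 10 and total of 15, TMM, quasi-likelihood test, two-sided) over 347 loci with Benjamini-Hochberg adjustment and a threshold of 0.05. SEs come from the coefficient and its F statistic. Arm ratios and levels used exact sign-flip tests over 6 libraries, with 0.5 added to counts. No library pair agreed within sampling noise, so that variation between libraries limits the precision beside the totals of 904892 to 1706396 counts. The procedures were tested on simulated data. DESeq2 1.42.0, other scalings and filters, summed copies, a replicate block and leaving out each library were tried.

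Every member is named. Other miRNAs follow a rule (loci within 10 kb, the 3 closest profiles of each tested 5p arm, the 2 most abundant seed relatives), besides miR-21a-5p and the cell type markers. The members and lists were chosen with earlier results of these data known.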

Additional observations from a re-analysis of the deposited data

How the results depend on the processing

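The number of loci called in either direction by edgeR's quasi-likelihood test was 15 of 347. It was 23 with DESeq2 and 6 with the replicate number as a block, and leaving out 1 library gave 5 to 45, the most without old replicate 1 and the fewest without old replicate 2. The number of cluster members called was 1, always miR-351-5p, under RLE scaling, library totals, no filter, summed copies, the replicate block and DESeq2, and 0 to 1 when 1 library was left out (0 without young replicate 1 or old replicate 2). The cause was not tested. Deviations of same-numbered libraries from their group means correlated at -0.134, 0.0238 and -0.146 over 347 loci, and those of unlike-numbered libraries at -0.089 to 0.228. With 3 libraries per group this cannot show whether the numbers pair the libraries, and the labels do not say. The block changed no member's call.

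The median log2 fold change of the tested members was -0.46, and -0.48 to -0.33 with 1 library left out. The old minus young difference in the cluster's share was -0.160 percentage points, -0.388 without miR-21a-5p in the total (a smaller total by construction), and -0.189 to -0.142 with 1 library left out. With 1 library left out the mean log2 arm ratio was 5.74 to 5.93 for Mir322, 0.95 to 1.22 for Mir503, 7.21 to 7.86 for Mir351, 6.11 to 6.74 for Mir450-1 and Mir450-2 and -3.46 to -3.33 for Mir450b. With 5 libraries the exact test cannot go below 0.0625, so that 0 of the 10 neighbouring levels and no arm ratio could pass, while all 10 differences kept their direction. The median over the seed relatives was -0.13, and -0.22 to -0.066 with 1 library left out. Depth limits the 3 untested arms most, with 10 to 32 counts in all, and also the rarer tested ones, such as miR-450b-5p with 138.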
